A study of Rattus norvegicus with 9 samples.

Results

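Complement C3 was followed as a single gene, ENSRNOG00000046834, across all 9 libraries of HBZY-1, an established cell line of mesangial cells from the rat glomerulus, where such cells support the capillaries of the kidney filter. It is 1 of 30560 genes in the deposited table of TPM (the abundance of a transcript per 1000000 transcripts of its library, corrected for length), and its 3 transcripts were read from the matching transcript table. The extract group (3 libraries) was given a high dose of an aqueous preparation of lyophilized Poecilobdella manillensis, which is a leech. The LPS group (3 libraries) is the inflammatory model, made with lipopolysaccharide, a component of the outer membrane of bacteria that is used to provoke inflammation in culture. The control group (3 libraries) has no treatment named in its labels. The labels give no genotype, dose amount or exposure time, and do not say whether the extract cells also received LPS. All groups are 1 cell line, so nothing here bears on mesangial cells of other origin. The series title frames the work as a test of whether the extract lessens inflammatory injury of these cells.

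C3 was chosen by its values in these libraries: it had the smallest p among the genes that were higher in LPS than in control cells. Its levels and fold changes are therefore given as a description, with no test. The deposited tables pair no identifier with a gene name, and 0 of the 30560 identifiers matched the RefSeq table of 47357 rat genes used here. That the identifier is rat C3 is taken from the choice of the gene and was not checked against these files. For the same reason the mesangial identity of the cells was not checked by markers, and the other complement genes, listed by role as initiators, convertase subunits, terminal components, receptors and regulators, were not analysed here. No other gene in the table had exactly the same values as C3 in all libraries. The values of a near-identical copy need not be identical, so this cannot exclude one.

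C3 is the protein on which the classical, lectin and alternative routes of complement activation converge. Convertase enzymes cleave it into a small fragment that attracts and activates leukocytes and a large fragment that attaches covalently to nearby surfaces, marks them for uptake and starts the terminal pathway. The liver makes most of the circulating protein, as part of the acute-phase response, and kidney cells can make it locally during inflammation. In the glomerulus, deposits of C3 in the mesangium are a familiar feature of several immune-mediated kidney diseases.

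The promoter of C3 is shown because the gene was near silent in 1 group and well expressed in the other 2. The sequence is from RefSeq on the rat assembly GRCr8, chr9:2201290-2201589, minus strand, and runs from 250 bases before the annotated start of the gene to 50 bases after it. The build of the deposited tables is not given in the sources used here. Capitals mark the match to the C/EBP motif.
C3 promoter: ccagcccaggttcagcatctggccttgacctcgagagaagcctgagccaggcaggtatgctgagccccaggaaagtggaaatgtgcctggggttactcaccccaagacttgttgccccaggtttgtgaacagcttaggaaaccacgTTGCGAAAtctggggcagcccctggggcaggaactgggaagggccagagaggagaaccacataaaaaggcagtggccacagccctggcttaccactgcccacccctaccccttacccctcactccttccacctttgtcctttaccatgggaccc

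C/EBP proteins are transcription factors of acute-phase genes, and the proximal promoter of human C3 is known to hold C/EBP sites that serve its response to cytokines. The letters TTGCNNAA were found 1 time in the rat window, on the given strand, from 104 to 97 bases before the start. Of 33469 rat promoter windows of 300 bases, 10.6% held this motif on either strand. The letters TGANTCA (AP-1), TTCNNNGAA (a STAT motif) and TATAAA (the TATA box) were not in the C3 window on either strand. Nor was the NF-kB motif, whose letters are not listed here. Those motifs were present in 7.33%, 8.87%, 14.2% and 4.18% of the windows, in that order. No match overlapped another motif. A match describes letters only, since binding was not measured. Equally, the lack of a match in this window does not show that a factor has no site at C3.

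C3 stood at 40.68, 43.14 and 37.94 TPM in the 3 extract libraries. In the LPS libraries it stood at 103.14, 96.64 and 96.65 TPM, and in the control libraries at 0.12, 0.13 and 0.19 TPM. The 3 groups did not overlap: every LPS library lay above every extract library, and every extract library lay above every control library. The order of the levels was therefore LPS, extract, control, and both neighbouring pairs in that order were farther apart than their libraries were from each other. Among the 12192 genes that averaged 1 TPM or more, 1.44% showed this order without overlap. The choice of C3 nearly fixed the LPS above control part of this order, so the share is no test of it.

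The mean level was 40.6 ± 2.6 TPM in extract cells, 98.8 ± 3.7 TPM in LPS cells and 0.147 ± 0.038 TPM in control cells (SD, n = 3 each). The ratio of the means was 673.7 for LPS over control. Between single libraries this ratio ran from 508.6, for the lowest LPS against the highest control library, to 859.5. The ratio of the means was 276.7 for extract over control, with single libraries between 199.7 and 359.5. It was 0.411 for extract over LPS, with single libraries between 0.368 and 0.446. The ratios to control rest on a level close to 0, and the number of reads behind it is unknown because TPM keeps no record of depth. These values come from whole cultures, in which fewer C3-expressing cells and less C3 RNA per cell cannot be told apart.

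**Figure D1:**
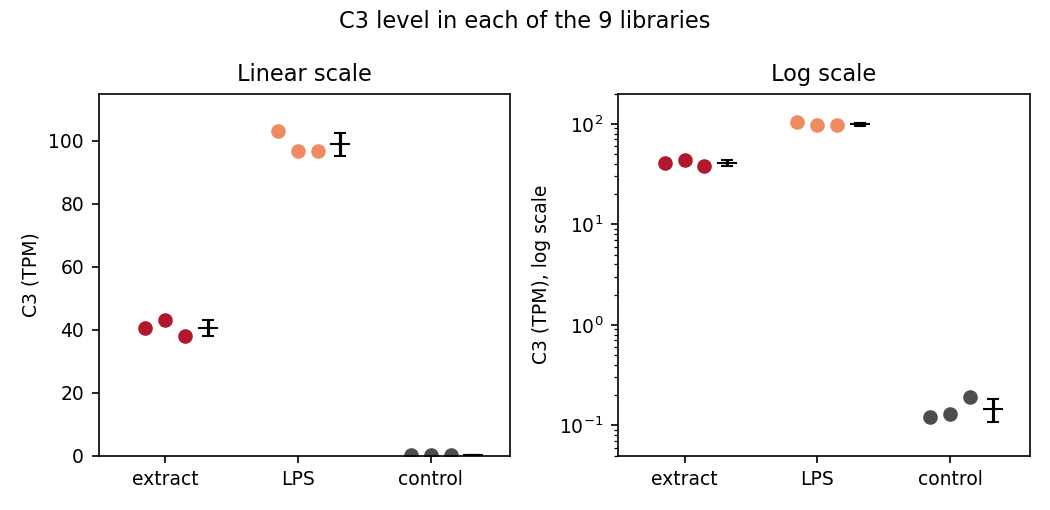
C3 in TPM in each of the 9 libraries, on a linear axis at left and a log axis at right, with extract, LPS and control groups from left to right. Points are libraries, and the bars beside them are the mean and SD of 3 libraries; the extract libraries lie between 37.94 and 43.14, the LPS libraries between 96.64 and 103.14, and the control libraries between 0.12 and 0.19.

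On the scale of log2(TPM + 1), fitted with limma over these 12192 genes, the difference was 6.44 ± 0.056 (SE) in LPS versus control. It was 5.18 ± 0.056 in extract versus control and -1.26 ± 0.056 in extract versus LPS. The SE is the same because the 3 groups share 1 estimate of the spread. On this scale the SD was 0.091 in extract, 0.054 in LPS and 0.047 in control cells. The LPS and control values entered the choice of the gene, so the shared SE may be too small for the comparisons with extract. By size, C3 was in place 2 of the 12192 genes for LPS versus control and in place 1 for extract versus control. Over all tested genes the median difference was -0.08 for LPS versus control and -0.04 for extract versus control. By the size of the decrease in extract versus LPS, C3 was in place 176. All these places were taken on this scale only. That for LPS versus control rests on values that chose the gene. The other places each use the LPS or the control values that entered that choice. The comparisons share libraries, so these 3 differences are not independent of each other.

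The added 1 TPM weighs heavily on a gene this low in control cells. With a pseudocount of 0.1 the difference was 8.66 for LPS over control and 7.37 for extract over control, and with a pseudocount of 5 it was 4.33 and 3.15. The extract versus LPS difference, in which both levels are far above the pseudocount, was -1.28 and -1.19.

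On the linear scale, which needs no pseudocount, the rise of C3 above control in extract cells was 41.0% of its rise in LPS cells. Over all 27 combinations of 1 library from each group this share lay between 36.7% and 44.6%. After rescaling the libraries by the median of ratios it was 39.6%, with mean levels of 40.4 ± 2.5 TPM in extract, 101.8 ± 4.2 TPM in LPS and 0.141 ± 0.036 TPM in control cells (SD, n = 3 each). In TPM the levels in extract cells thus sat below the midpoint between control and LPS, with or without this rescaling. On the log2(TPM + 1) scale they sat above it, with means of 5.38 in extract, 6.64 in LPS and 0.197 in control cells.

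Non-overlap was common among the other genes. Values higher in all LPS than in all control libraries were found for 12.5% of the tested genes. Values lower in all extract than in all LPS libraries were found for 27.8%, and values higher in all extract than in all control libraries for 26.2%. The whole order shown by C3, with LPS above extract above control and no overlap, was found for 175 genes, or 1.44% of those tested. These 175 are among the 1524 genes that were higher in all LPS than in all control libraries. The choice of C3 made its place among the 1524 near certain. In 31 of the 175, C3 among them, the mean TPM differed at least 2-fold at both steps.

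Within these 175 genes, 22 had a mean of less than 1 TPM in control cells, as C3 did. C3 was in place 33 by its level in LPS cells. The median level of the other genes was 37.3 TPM in LPS cells and 18.2 TPM in control cells. For the other genes of the 175 the rise in extract cells had a median of 38.4% of the rise in LPS cells, with quartiles of 25.6% and 53.6%. The share of C3 was exceeded by 81 of them and 93 had a lower one, so by this measure C3 lay near the middle.

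C3 was also set beside the genes with rises of at least 8-fold in LPS cells, counted after adding 1 TPM. Most of these rises were smaller than that of C3. In LPS versus control 27 genes, or 0.221% of those tested, reached this size with a limma adjusted p below 0.05. At any size, 9.79% of genes were called higher. The added 1 TPM can keep out genes near 0 in control cells whose TPM rose more than 8-fold. C3 is 1 of the 27 by the choice of the gene, so its place among them is no test of it. Among the genes other than C3 the share of the rise found in extract cells ran from 0.0% to 90.7%, with a median of 34.6%. It was above that of C3 in 9 genes and below it in 17. These genes were chosen for their values in the LPS libraries, C3 included, so the shares are a description.

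In abundance, C3 moved across most of the range of detected genes. In extract libraries it took places 3400 to 3813 by TPM, at or above 75.4% to 78.2% of the genes listed above 0. In LPS libraries it took places 1387 to 1525, at or above 90.3% to 91.2% of them. In control libraries it took places 13819 to 14159, at or above 9.7% to 12.7%. Between 15479 and 15837 genes were above 0 TPM in a library.

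**Figure D2:**
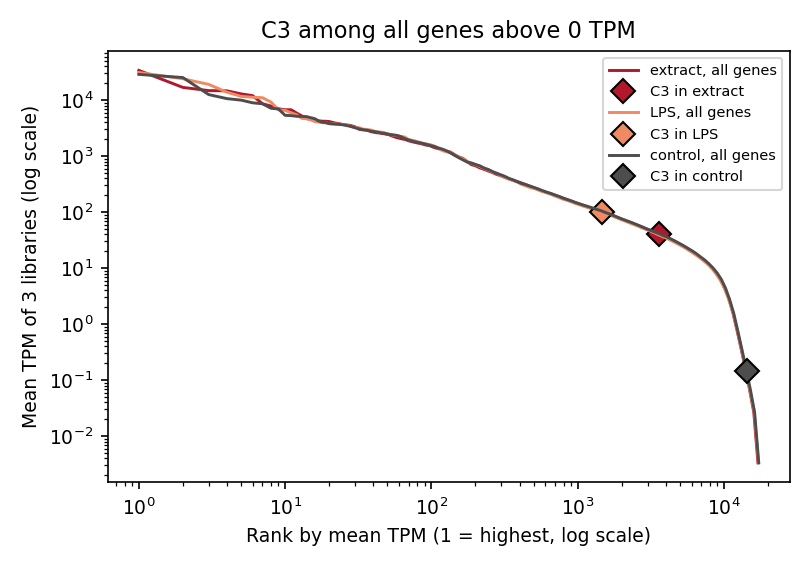
Mean TPM of each gene (3 libraries) against its rank in the extract, LPS and control groups, both axes on a log scale. Lines are all genes above 0 TPM and diamonds are C3, at rank 3591 in extract, 1461 in LPS and 14251 in control cells, while the 3 lines lie close together.

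Many genes were as low as C3 in control cells, and few of them became abundant. No control library was above 0.19 TPM, the highest control value of C3, for 15954 genes. Only 2665 of these were listed above 0 in any control library. Among the 15954 genes, 19 had a mean above 10 TPM in extract cells and 18 in LPS cells. C3 had the highest mean of them in LPS cells and was in place 4 in extract cells. C3 was chosen by its LPS and control values and its own control level set the cut, so these places are a description.

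Within a group, the coefficient of variation of C3 was 6.41% in extract, 3.79% in LPS and 25.8% in control cells. The LPS and control values entered the choice of the gene, which favours a small spread there, so only the extract value is set beside other genes. For the 4126 genes with a mean within 2-fold of that of C3 in extract cells the median was 3.52% and the upper quartile 5.31%, so C3 was more variable there than most genes of like level. Differences in culture between groups would not show in this spread, and the series calls its replicates biological without saying whether they were cultured separately.

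RefSeq lists 1 transcript for C3, while the deposited table holds 3. These are 3 consecutive transcripts whose TPM sum to that of the gene within 0.01 TPM in every library, and the entries on both sides match the neighbouring genes. ENSRNOT00000075494 carried most of the C3 signal, with 36.82, 40.27 and 35.96 TPM in extract libraries and 95.55, 88.33 and 89.02 TPM in LPS libraries. It was listed at 0 in all control libraries. ENSRNOT00000109251 had 3.86, 2.87 and 1.97 TPM in extract libraries, 7.59, 8.31 and 7.64 TPM in LPS libraries, and 0, 0 and 0.19 TPM in control libraries. The extract and LPS libraries did not overlap for either transcript.

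The third transcript, ENSRNOT00000073042, was listed at 0 in all extract and LPS libraries and at 0.12, 0.13 and 0 TPM in control libraries. In control replicates 1 and 2 it held all of the C3 signal, and in control replicate 3 ENSRNOT00000109251 did. The leading transcript of the other groups thus had no share in the control signal. Transcript values are estimates, and at so low a level the assignment of reads to one transcript or another could not be checked without read counts.

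**Figure D3:**
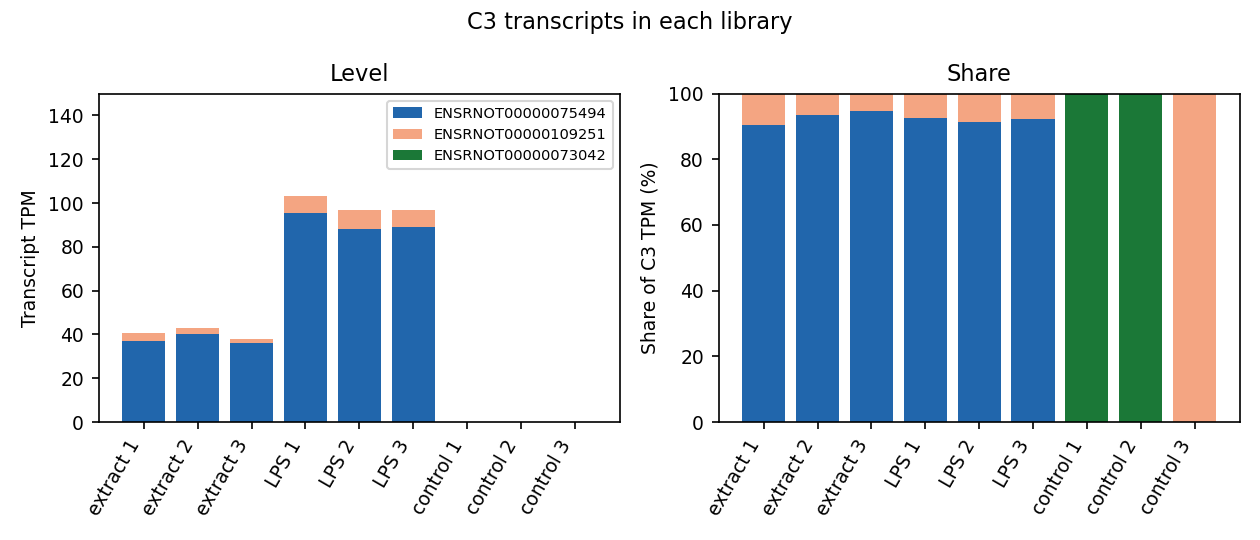
TPM of the 3 C3 transcripts (left) and their share of C3 in percent (right), stacked for each of the 3 extract, 3 LPS and 3 control libraries. ENSRNOT00000075494 holds between 90.5% and 94.8% in extract and LPS libraries, and the control bars at right stand for at most 0.19 TPM.

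The division between the 2 transcripts detected in extract and LPS cells was compared, since a share does not use the level that chose the gene. The share of ENSRNOT00000075494 was 90.5%, 93.3% and 94.8% in extract libraries and 92.6%, 91.4% and 92.1% in LPS libraries. The groups overlapped. The mean share was 92.9% ± 2.2 in extract and 92.0% ± 0.62 in LPS cells (SD, n = 3 each), a difference of 0.84 points. This did not pass a two-sided exact permutation test (p = 0.6), in which 3 against 3 libraries cannot go below 0.1. Without extract replicate 1 the difference was 2.03 points, and without extract replicate 3 it was -0.12 points. The ratio of extract to LPS means was 0.414 for ENSRNOT00000075494 and 0.370 for ENSRNOT00000109251.

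Genes with a pattern like that of C3 were sought among those that differed by at least 1 on the log2 scale between their highest and lowest group means, 979 besides C3. Each profile over the 9 libraries was centred and divided by its own SD, and likeness was the root mean square difference from the C3 profile, where 0 is an identical pattern. This measure ignores the size of a change. It was 1.401 for the median gene and between 0.030 and 0.108 for the 10 genes most like C3. Of these 10, 9 had the order LPS, extract, control with no overlap between groups, against 1.44% of all tested genes. They were picked for likeness to C3 in these same libraries, which nearly fixes that order, so the count is no test.

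The 10 genes differed widely in level and size of change. Their means ran from 10.6 to 3756 TPM in LPS cells, and 3 of them had less than 1 TPM in control cells. Their log2 differences in LPS versus control ran from 1.21 to 6.10, all below the 6.44 of C3. Their rise in extract cells was between 35.0% and 71.7% of the rise in LPS cells, with a median of 61.1%, against 41.0% for C3. These shares are on the linear scale, while the match was on the log2 scale. With like patterns there, a larger change gives a smaller linear share, so the contrast is not a separate result.

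The 2 nearest identifiers are given as examples, chosen after their values were seen. ENSRNOG00000008525, nearest at 0.030, had 22.82, 20.61 and 18.49 TPM in extract libraries, 42.08, 44.72 and 45.44 TPM in LPS libraries, and 0, 0 and 0.08 TPM in control libraries. Like C3 it was close to 0 in control cells, and its rise in extract cells was 46.8% of that in LPS cells. ENSRNOG00000011913, next at 0.033, had 212.9, 224.3 and 215.5 TPM in extract libraries, 326.4, 300.6 and 335.7 TPM in LPS libraries, and 37.51, 37.09 and 37.22 TPM in control libraries. It was well expressed in control cells, so its pattern matched C3 while its log2 difference in LPS versus control, 3.07, was smaller. In both genes, as in C3, no group overlapped another, which their choice by likeness to C3 made near certain.

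**Figure D4:**
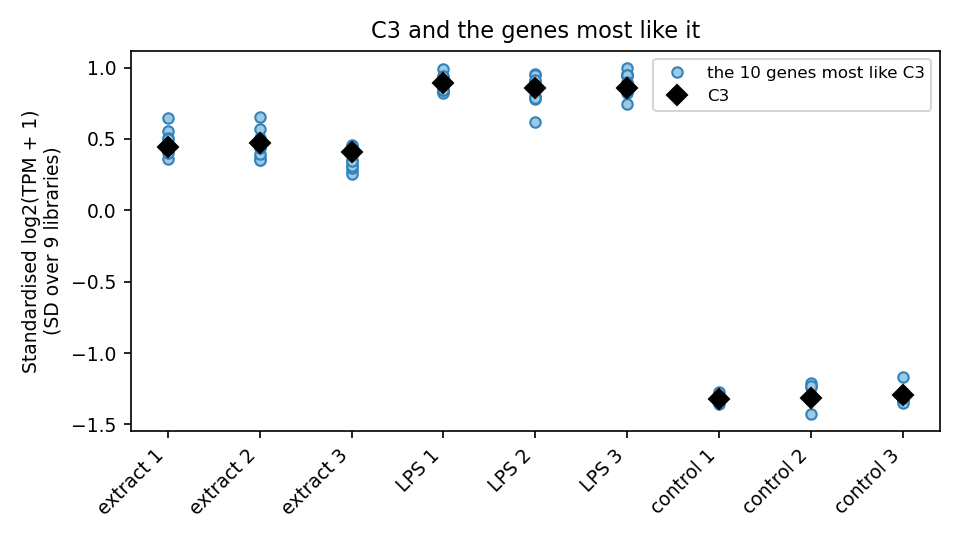
Standardised log2(TPM + 1), in SD over the 9 libraries, of C3 (black diamonds) and of the 10 genes most like it (blue circles) in each of the extract, LPS and control libraries. For C3 and 9 of the 10 genes every extract library lies below every LPS library and above every control library; in the other gene extract and LPS libraries overlap. The 10 genes were chosen for their small root mean square difference from C3, at most 0.1085.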

How the data were processed

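RNA of 9 HBZY-1 libraries was sequenced, 3 per group. The authors deposited TPM per gene and per transcript, rounded to 2 decimals. Per the submitters' processing notes the tools were RSEM 1.3.3, HISAT2 2.1.0 and fastp, listed without roles or settings. Build, annotation and strandedness were not given in the sources used here, and the depth of the libraries is unknown, so no counting intervals are given. TPM is relative: a rise of abundant genes lowers all others. Columns were matched to libraries by the short code in their titles. Genes that averaged 1 TPM or more were fitted as log2(TPM + 1) with limma 3.58.1 in R 4.3.3 (1 mean per group, mean-variance trend, Benjamini-Hochberg adjustment), a scale that understates changes of low genes. The procedure was tested on simulated data. Share tests used scipy 1.17.1. Members, lists and tests were chosen with earlier results of these data known. The rule for named genes was C3, the genes most like it and members of 17 fixed lists; without names it left C3 and counts. Alternatives were other pseudocounts, scalings, library sets, fits of 2 groups and a replicate block.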

Additional observations from a re-analysis of the deposited data

How the results depend on the processing

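The C3 differences on the log2 scale moved past the spread between libraries only with the pseudocount: in LPS versus control to 8.66 at 0.1 and 4.33 at 5, in extract versus control to 7.37 and 3.15, and in extract versus LPS to -1.19 at 5. Median-of-ratios scaling, quantile normalization and fits of only the 2 groups compared moved none of them past it, nor did leaving out a library, which gave 6.41 to 6.47, 5.14 to 5.23 and -1.31 to -1.22. The share of the rise lay between 39.7% and 42.3% with 1 library left out. The transcript share difference lay between -0.12 and 2.03 points, an alternative added after seeing the data. Of the 10 genes most like C3, 8 were kept with a pseudocount of 0.1 and 9 after median-of-ratios scaling. With the replicate block the differences were 6.44, 5.18 and -1.26, with an SE of 0.061 in place of 0.056. Deviations of same-numbered libraries correlated between -0.06 and 0.10 across genes, and those of differently numbered libraries between -0.11 and 0.09. Between extract and LPS the same-numbered pairs gave 0.02, 0.08 and 0.10, the highest there. They gave 0.07, 0.03 and 0.02 between LPS and control, and -0.06, -0.002 and -0.03 between extract and control. The numbers were not taken to pair the libraries, but overlapping ranges cannot exclude pairing. The alternatives for other complement genes were not run because the identifiers have no names here. The depth is unknown, so the reads behind the control level of C3 are unknown too.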
